A study of Mus musculus with 4 samples.

Results

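The genes described here are the 9 genes of the major histocompatibility complex (MHC) class I pathway H2-K1, H2-D1, H2-T23, B2m, Tap1, Tap2, Tapbp, Psmb8 and Psmb9. Their gene IDs in the deposited tables are 14972, 14964, 15040, 12010, 21354, 21355, 21356, 16913 and 16912, in that order. They were found in the tables by gene symbol, were all listed in each of the 4 deposited gene tables, and are 9 of 18492 genes listed in any of them. RNA was sequenced from hippocampus, all of it from C57BL/6 animals at 6 months, and each of 4 genotypes gave 1 library: Ogg1-/- (Ogg1 KO), Mutyh-/- (Mutyh KO), mice lacking both genes (labelled Ogg-/- Mutyh-/-, DKO here) and wild type (WT). Ogg1 encodes the glycosylase that removes 8-oxoguanine from DNA, and Mutyh the glycosylase that removes adenine mispaired with it. The sources used here do not give the number and sex of the animals behind each library or how the alleles were built.

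MHC class I molecules carry peptides from the inside of a cell to its surface, where CD8 T cells and natural killer cells read them. A heavy chain (H2-K1, H2-D1, or the nonclassical H2-T23, which forms Qa-1) folds in the endoplasmic reticulum with beta-2 microglobulin, the product of B2m. The peptides are cut by the proteasome, in which Psmb8 and Psmb9 replace constitutive catalytic subunits to form the immunoproteasome. The transporter made of Tap1 and Tap2 brings them into the endoplasmic reticulum, and tapasin (Tapbp) bridges it to the empty heavy chain. Interferons induce most of these genes, and in the brain class I molecules are found on endothelial cells and microglia and also on neurons, where H2-K1 and H2-D1 have been studied for a role in synapse refinement.

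The promoters of these genes are shown because they hold the elements through which class I genes are known to be controlled together. RefSeq windows of GRCm38.p6, from 250 bases before to 50 after the listed start, matched 8 of the 9 genes by symbol, with none for Tap2. Each was searched on both strands for GGGA followed by CC with 4 free bases between (a loose NF-kappaB site), for GAA or GAAA followed by GAAA with 2 free bases between (a site of interferon regulatory factors, IRF), for TGACG (the core of a cAMP response element, present in the class I enhancer) and for CCAAT. Capitals mark every match, and the longest NF-kappaB runs of capitals are elements matched on both strands, so that the matches overlap. The windows shown are those of the classical heavy chains H2-K1 (chr17:34000298-34000597, minus strand) and H2-D1 (chr17:35262844-35263143, plus strand), of their partner B2m (chr2:122147437-122147736, plus strand) and of Tap1 (chr17:34187306-34187605, plus strand).
H2-K1: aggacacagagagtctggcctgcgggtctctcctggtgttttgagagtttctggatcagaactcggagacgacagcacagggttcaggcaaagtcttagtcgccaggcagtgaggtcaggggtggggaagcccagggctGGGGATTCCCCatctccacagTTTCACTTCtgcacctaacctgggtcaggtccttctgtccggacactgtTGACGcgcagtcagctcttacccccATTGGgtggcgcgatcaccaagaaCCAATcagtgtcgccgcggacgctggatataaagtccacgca
H2-D1: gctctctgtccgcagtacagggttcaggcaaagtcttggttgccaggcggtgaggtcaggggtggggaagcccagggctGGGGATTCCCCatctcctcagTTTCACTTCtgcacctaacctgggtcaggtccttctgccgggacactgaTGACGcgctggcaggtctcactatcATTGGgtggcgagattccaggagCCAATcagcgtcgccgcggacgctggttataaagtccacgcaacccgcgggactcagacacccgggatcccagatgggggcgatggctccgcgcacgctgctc
B2m: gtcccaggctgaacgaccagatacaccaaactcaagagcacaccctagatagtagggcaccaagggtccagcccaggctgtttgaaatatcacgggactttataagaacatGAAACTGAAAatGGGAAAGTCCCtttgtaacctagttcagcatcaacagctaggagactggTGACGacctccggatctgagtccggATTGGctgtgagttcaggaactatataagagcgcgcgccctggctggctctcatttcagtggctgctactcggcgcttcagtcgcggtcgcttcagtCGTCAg
Tap1: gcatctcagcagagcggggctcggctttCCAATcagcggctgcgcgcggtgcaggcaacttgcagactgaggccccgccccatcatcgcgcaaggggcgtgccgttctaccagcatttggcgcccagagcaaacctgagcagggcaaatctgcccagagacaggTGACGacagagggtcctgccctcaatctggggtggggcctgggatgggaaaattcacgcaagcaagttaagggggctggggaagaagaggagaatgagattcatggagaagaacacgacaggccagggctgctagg

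H2-K1, H2-D1 and B2m were the 3 of 8 windows that held an NF-kappaB, an IRF and a TGACG match together, as did 0.326% of the 32851 RefSeq windows of the same length. Taken singly the matches are common: 20.7% of all windows held the NF-kappaB pattern (3 of 8 here), 10.4% an IRF pattern (4 of 8, H2-T23 being the fourth), 20.8% TGACG (5 of 8) and 37.4% CCAAT (7 of 8). The windows of H2-K1 and H2-D1 aligned over 239 bases with 88.3% identity, so their shared matches are not separate cases. The Tap1 window shared 275 of its bases with that of Psmb9, which is transcribed from the opposite strand with a start 226 bases away. The TGACG and CCAAT matches of Tap1 are the same bases as those of Psmb9, so each is counted for both genes. Psmb8 held none of the patterns in its window. The patterns were chosen as elements known to control class I genes, so these counts do not test for an excess. A match is a run of letters and was not tested as a binding site.

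The libraries held 17.0 M to 18.2 M unique reads in genes (M for mega), of which the 9 genes took 3710 in Ogg1 KO, 4030 in Mutyh KO, 3950 in DKO and 3183 in WT. The knockout labels were checked on the targeted genes. Ogg1 had 130 reads in Ogg1 KO, 81 in Mutyh KO, 103 in DKO and 94 in WT, a total that runs against the labels of Ogg1 KO and DKO, while its covered share was 47.2% in Ogg1 KO and 46.4% in DKO, against 81.5% in Mutyh KO and 86.7% in WT. Mutyh had 15 reads in Mutyh KO and 20 in DKO, against 35 in Ogg1 KO and 39 in WT. Every direction below is therefore that of the libraries so labelled. Because each genotype is 1 library, the differences could not be checked against replicates and carry no p-value, and the 95% intervals cover counting error only. All comparisons with WT rest on the same WT library.

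Levels are given as RPKM, reads scaled to the length of the gene and the library total, which can be set beside each other across genes. By the mean over the 4 libraries the order was B2m (114.9 RPKM), H2-D1 (15.6), H2-K1 (14.5), Tapbp (13.4), H2-T23 (4.67), Tap2 (4.37), Psmb8 (2.15), Tap1 (1.43) and Psmb9 (1.09). B2m lay above 96.7% of the 13186 genes with a mean of at least 1 RPKM, the set compared here, and H2-D1 above 64.1%, whereas Tap1 lay above 5.33% and Psmb9 above 1.39%. Intervals overlapped in every library for H2-D1 and H2-K1, for H2-T23 and Tap2 and for Tap1 and Psmb9. They overlapped in all but DKO for H2-K1 and Tapbp, and in Ogg1 KO and Mutyh KO for Psmb8 and Tap1. By this overlap these neighbours are not firmly ordered, though the direct ratio given below placed H2-K1 below H2-D1 in WT. All 9 genes passed the filter at 1 RPKM, Psmb9 with 0.890 RPKM in WT.

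**Figure D1:**
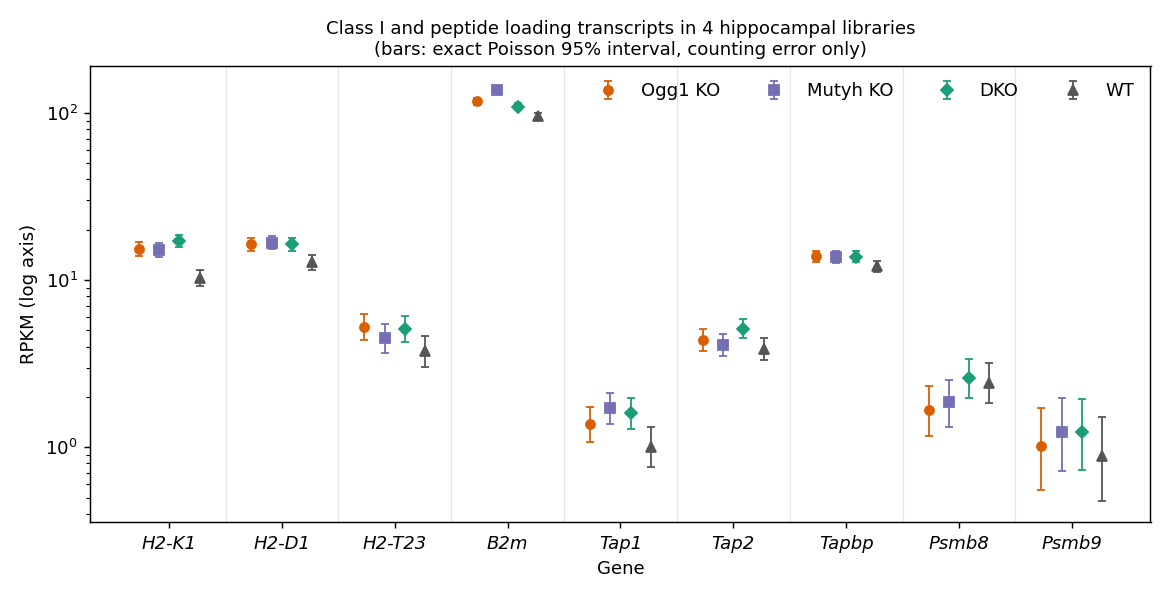
RPKM of the 9 genes (log axis) in the Ogg1 KO, Mutyh KO, DKO and WT libraries, 1 point per library with exact Poisson 95% intervals for counting error only. B2m lies near 100 RPKM, Psmb9 and Tap1 near 1, and the WT point is the lowest of the 4 for every gene but Psmb8.

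The heavy chain transcripts were higher in all 3 knockout libraries than in WT. H2-K1, a classical heavy chain, had 435 reads in Ogg1 KO, 436 in Mutyh KO, 521 in DKO and 313 in WT, or 15.3, 15.2 and 17.1 RPKM against 10.4 RPKM. The knockout libraries lay close together with DKO highest, and WT was the lowest. H2-K1 was 1.48-fold WT in Ogg1 KO (1.28 to 1.72), 1.47-fold in Mutyh KO (1.27 to 1.71) and 1.66-fold in DKO (1.44 to 1.91). H2-D1, the other classical heavy chain, had 484 reads in Ogg1 KO, 498 in Mutyh KO, 518 in DKO and 401 in WT, or 16.4, 16.7 and 16.4 RPKM against 12.7 RPKM. Its folds over WT were nearly equal, at 1.28 in Ogg1 KO (1.12 to 1.47), 1.31 in Mutyh KO (1.15 to 1.5005) and 1.29 in DKO (1.13 to 1.47).

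H2-T23, whose product presents mainly leader peptides of other class I chains, had 118 reads in Ogg1 KO, 102 in Mutyh KO, 123 in DKO and 90 in WT. The intervals of its folds lay above 1 in Ogg1 KO (1.40, 1.05 to 1.86) and DKO (1.36, 1.03 to 1.81) and included 1 in Mutyh KO (1.20, 0.893 to 1.61). The 3 heavy chains together held 37.0 RPKM in Ogg1 KO, 36.5 in Mutyh KO, 38.7 in DKO and 26.9 in WT, which is 1.37-fold (1.251 to 1.51), 1.36-fold (1.24 to 1.49) and 1.44-fold (1.31 to 1.58). Per length, H2-K1 stood at 93.5% of H2-D1 in Ogg1 KO (81.9% to 106.6%), 91.1% in Mutyh KO (79.9% to 103.8%) and 104.6% in DKO (92.5% to 118.4%), and at 81.2% in WT (69.8% to 94.4%), so that the interval left out equality in WT alone, a difference between libraries that was not tested. Class I heavy chains are near copies of each other and the authors counted unique reads, so reads can be lost or split among them. Reads covered 83.8% to 92.3% of H2-K1 and 88.2% to 90.0% of H2-D1, while the medians for genes matched in length and reads were 94.4% to 96.0% and 95.7% to 96.1%.

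B2m, the light chain shared by all class I molecules, showed a different order of the libraries. It had 1718 reads in Ogg1 KO, 2028 in Mutyh KO, 1703 in DKO and 1481 in WT, or 117.6, 137.9 and 109.0 RPKM against 95.3 RPKM. Mutyh KO was the highest and DKO the lowest of the knockout libraries. The folds over WT were 1.23 in Ogg1 KO (1.15 to 1.32), 1.45 in Mutyh KO (1.35 to 1.55) and 1.14 in DKO (1.07 to 1.23). Of the 3 knockout libraries, B2m stood closest to WT in DKO. B2m was 3.18 times the summed heavy chains in Ogg1 KO, 3.78 times in Mutyh KO and 2.82 times in DKO, against 3.55 times in WT, in RPKM. No interval was computed for this ratio. The sum holds only H2-K1, H2-D1 and H2-T23, whose reads can be lost under unique counting.

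The peptide transporter was weakly expressed. Tap1, which pairs with Tap2 to form the transporter, had 69 reads in Ogg1 KO, 87 in Mutyh KO, 86 in DKO and 54 in WT. Its folds were 1.36 in Ogg1 KO (0.939 to 1.98), 1.70 in Mutyh KO (1.20 to 2.44) and 1.59 in DKO (1.12 to 2.27). Tap1 was lowest in WT, and the interval for Ogg1 KO included 1. Reads covered 57.4% of Tap1 in Ogg1 KO, 75.05% in Mutyh KO, 70.4% in DKO and 48.5% in WT.

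Tap2, the other subunit, had 186 reads in Ogg1 KO, 175 in Mutyh KO, 232 in DKO and 175 in WT. It was above WT beyond counting error in DKO (1.32-fold, 1.08 to 1.61), with folds of 1.13 in Ogg1 KO (0.915 to 1.40) and 1.06 in Mutyh KO (0.852 to 1.31). Per length Tap2 was 3.19 times Tap1 in Ogg1 KO (2.41 to 4.27), 2.38 times in Mutyh KO (1.83 to 3.12) and 3.20 times in DKO (2.49 to 4.14), against 3.84 times in WT (2.82 to 5.31). Tapbp, which encodes tapasin and was higher per length than Tap1 and Tap2, had 651 reads in Ogg1 KO, 648 in Mutyh KO, 691 in DKO and 602 in WT. Its folds were small and alike, at 1.15 in Ogg1 KO (1.03 to 1.29), 1.14 in Mutyh KO (1.02 to 1.27) and 1.14 in DKO (1.02 to 1.28). The interval in Mutyh KO included 1 under TMM scaling (1.11, 0.995 to 1.246). In the GENCODE M21 annotation exons of Tap1 and Psmb9 overlap on opposite strands, Tap2 and Psmb8 overlap the antisense gene Gm20496, and Tapbp overlaps Zbtb22. The sources used here do not say whether the libraries kept strand, so reads from such overlaps cannot be told apart.

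Of the immunoproteasome genes, Psmb8 was the only one of the 9 genes that was not lowest in WT. Psmb8, which replaces Psmb5 in the immunoproteasome, had 35 reads in Ogg1 KO, 39 in Mutyh KO, 58 in DKO and 54 in WT, or 1.68, 1.86 and 2.61 RPKM against 2.44 RPKM. Both single knockout libraries were lower than DKO and WT. All its intervals against WT included 1, at 0.690-fold in Ogg1 KO (0.438 to 1.07), 0.763-fold in Mutyh KO (0.492 to 1.17) and 1.07-fold in DKO (0.725 to 1.58). Psmb9, which replaces Psmb6, had 14 reads in Ogg1 KO, 17 in Mutyh KO, 18 in DKO and 13 in WT, and at this depth its folds of 1.15 (0.4997 to 2.65), 1.38 (0.632 to 3.09) and 1.38 (0.638 to 3.06) could not be told from 1.

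Set against the constitutive subunit of the same site, Psmb8 was 4.31% of Psmb5 in Ogg1 KO (2.97% to 6.07%), 4.62% in Mutyh KO (3.25% to 6.39%) and 5.64% in DKO (4.24% to 7.37%), against 4.61% in WT (3.43% to 6.08%), in RPKM. Psmb9 was 2.56% of Psmb6 in Ogg1 KO, 2.83% in Mutyh KO, 2.89% in DKO and 1.94% in WT, with overlapping intervals. Psmb10, the remaining catalytic subunit of the immunoproteasome, was 24.8% of Psmb7 in Ogg1 KO (21.6% to 28.4%), 17.0% in Mutyh KO (14.6% to 19.7%) and 18.02% in DKO (15.6% to 20.8%), against 17.8% in WT (15.4% to 20.5%). The constitutive forms thus made up most of each pair in all 4 libraries, and the Ogg1 KO interval for Psmb10 over Psmb7 did not overlap the others.

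**Figure D2:**
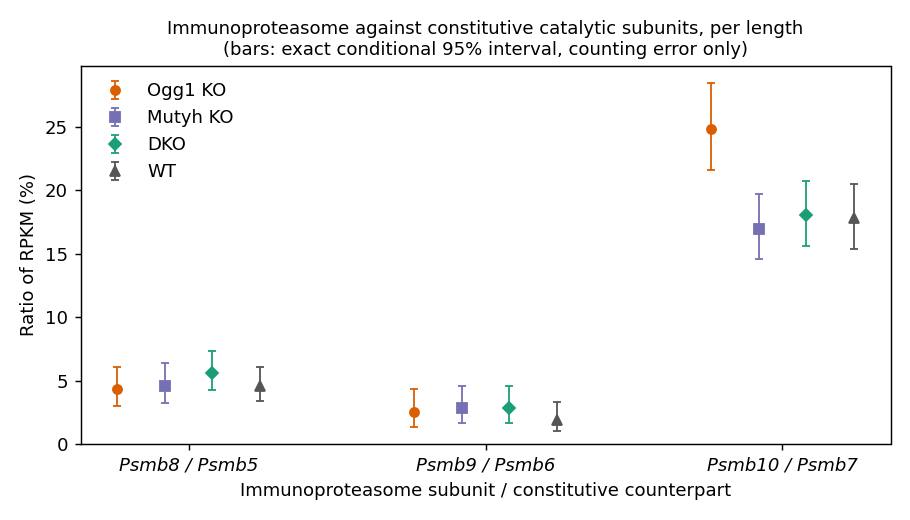
RPKM of Psmb8, Psmb9 and Psmb10 as a percent of the constitutive subunits Psmb5, Psmb6 and Psmb7 in the Ogg1 KO, Mutyh KO, DKO and WT libraries, with exact conditional 95% intervals for counting error only. The points of Psmb8 and Psmb9 lie below 6% in every library, and Psmb10 in Ogg1 KO, at 24.8%, lies above the other 3 libraries.

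Over the 9 genes the median log2 ratio to WT, taken on RPKM plus 1, was 0.24 (Ogg1 KO), 0.24 (Mutyh KO) and 0.33 (DKO), beside 0.02, 0.01 and 0.00 over all 13186 genes. By direction alone, 8 of 9 genes were higher in Ogg1 KO (54.6% of all genes), 8 of 9 in Mutyh KO (53.1%) and 9 of 9 in DKO (49.3%). At least 1.5-fold on that scale, the call used here, 0 of 9 genes were higher in Ogg1 KO (1.57% of all genes), 0 of 9 in Mutyh KO (2.31%) and 1 of 9, H2-K1, in DKO (1.62%). None of the 9 was at least 1.5-fold lower in Ogg1 KO (0.66% of all genes), Mutyh KO (0.167%) or DKO (0.394%). Counting intervals lay above 1 for 5 of 9 genes in Ogg1 KO (21.3% of all genes), 5 of 9 in Mutyh KO (19.8%) and 7 of 9 in DKO (16.2%), and below 1 for 0 of 9 in each (16.2%, 16.4% and 17.2%). H2-K1, H2-D1, B2m and Tapbp were among those above 1 in all 3 comparisons. WT had the lowest RPKM of the 4 libraries for 8 of the 9 genes, Psmb8 being the exception, and for 30.7% of all genes. The folds lay between 1.06-fold and 1.70-fold for the genes other than Psmb8.

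**Figure D3:**
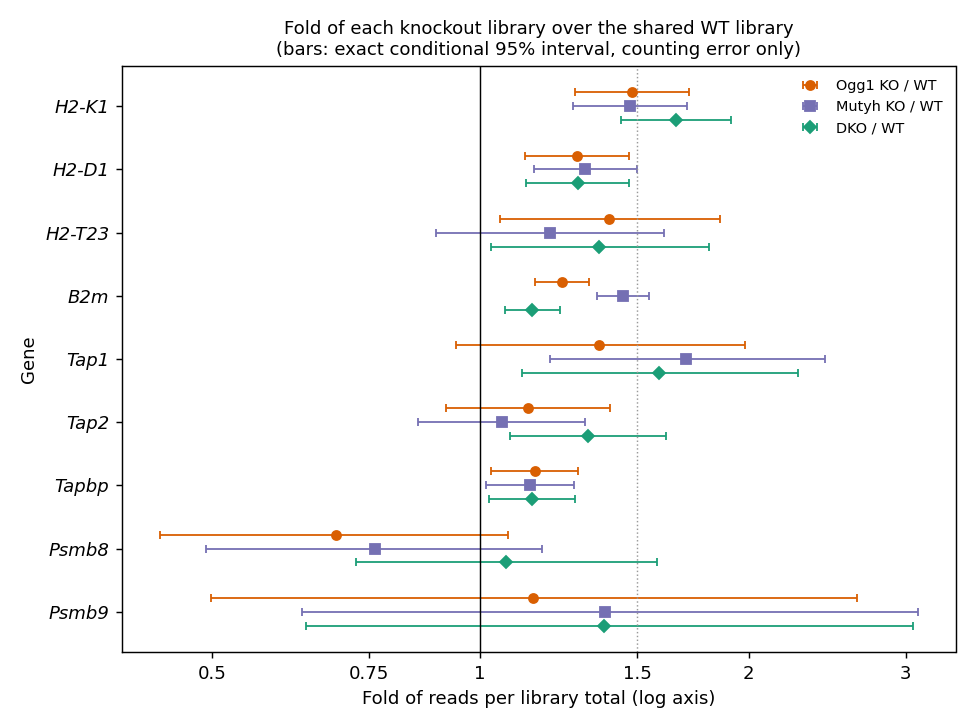
Fold of reads per library total (log axis) of the Ogg1 KO, Mutyh KO and DKO libraries over WT for each gene, with exact conditional 95% intervals; the dotted line marks 1.5-fold. H2-K1, H2-D1, B2m and Tapbp lie above 1 in all 3 comparisons, Psmb8 lies below 1 in both single knockouts, and the intervals of Psmb9 are the widest.

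The design also allows the loss of each glycosylase gene to be read where the other gene is already lost, between libraries that leave WT out. By label, DKO against Mutyh KO differs in Ogg1, and DKO against Ogg1 KO in Mutyh. The sex of the animals is not given, and Xist reads were far higher in Mutyh KO than in the other libraries, as given below. Comparisons with Mutyh KO, including that with WT, may therefore not be of genotype alone. The same holds for the comparisons among Ogg1 KO, DKO and WT, whose sums of choroid plexus markers differed widely, as given below. Over the 9 genes the median log2 ratio was 0.01 for DKO against Mutyh KO and 0.13 for DKO against Ogg1 KO, beside -0.01 and -0.02 over all genes. On the log2 scale of RPKM plus 1, none of the 9 was at least 1.5-fold higher in DKO than in Mutyh KO (0.19% of all genes) or in Ogg1 KO (0.827%), and none at least 1.5-fold lower (1.15% and 0.766%). The summed heavy chains were 1.06-fold in DKO over Mutyh KO (0.971 to 1.15) and 1.05-fold over Ogg1 KO (0.963 to 1.14). Against Mutyh KO, 1 of 9 intervals lay above 1 (Tap2 at 1.249-fold, 1.02 to 1.53, 9.79% of all genes) and 1 below (B2m at 0.791-fold, 0.741 to 0.844, 13.4%). Against Ogg1 KO, 1 of 9 lay above 1 (Psmb8 at 1.55-fold, 1.002 to 2.43, 14.1% of all genes) and 1 below (B2m at 0.927-fold, 0.866 to 0.992, 19.8%). The call on B2m against Ogg1 KO ended under median of ratios scaling (0.936-fold, 0.875 to 1.001).

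The ratio of the Ogg1 fold on the Mutyh-null background to that on the intact background says how far DKO lies from the product of both single knockouts. It was 0.641 for B2m (0.583 to 0.704), 0.761 for H2-K1 (0.627 to 0.923) and 0.763 for H2-D1 (0.637 to 0.914), so that the intervals of 3 of 9 genes lay below 1, as did those of 20.7% of the 13166 compared genes with reads in all 4 libraries. For Psmb8 it was 2.03 (1.13 to 3.66), 1 of 9 above 1, against 14.2% of those genes. The intervals of the other 5 genes included 1, at 0.814 for H2-T23 (0.557 to 1.19), 0.685 for Tap1 (0.430 to 1.09), 1.10 for Tap2 (0.830 to 1.47), 0.873 for Tapbp (0.748 to 1.02) and 0.870 for Psmb9 (0.319 to 2.38). The same single WT library enters each of these ratios, as does the Mutyh KO library with its higher Xist reads.

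**Figure D4:**
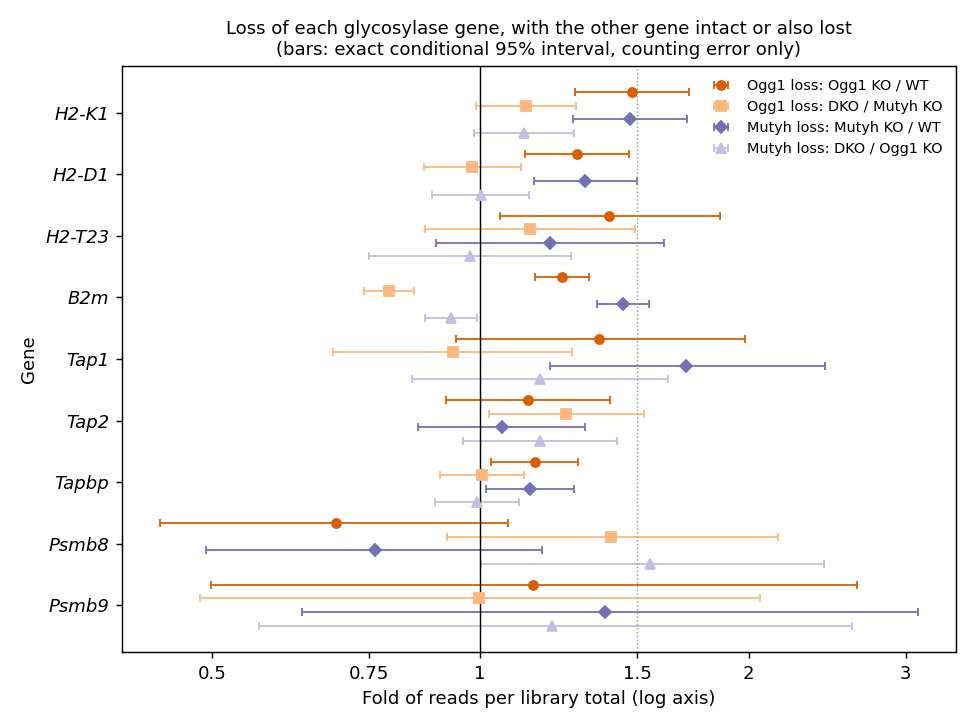
Fold of reads per library total (log axis) for the loss of Ogg1 (Ogg1 KO over WT and DKO over Mutyh KO) and of Mutyh (Mutyh KO over WT and DKO over Ogg1 KO), with exact conditional 95% intervals; the dotted line marks 1.5-fold. B2m lies above 1 where the other gene is intact and below 1 where it is also lost, and the folds of H2-K1 and H2-D1 are smaller where the other gene is also lost.

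Of 20 other class I heavy chains listed, 6 had a mean of at least 1 RPKM, with median log2 ratios of 0.45 (Ogg1 KO), 0.55 (Mutyh KO) and 0.33 (DKO). In each, 5 of 6 were higher (54.6%, 53.1% and 49.3% of all genes). Over the 19 that were listed in any library the medians were smaller, at 0.05, 0.16 and 0.18. H2-T24, a nonclassical heavy chain, had 160 reads in Ogg1 KO, 195 in Mutyh KO, 209 in DKO and 110 in WT, and its folds were 1.55, 1.87 and 1.89. Mr1, which presents vitamin B metabolites to MAIT cells, was at 1.73-fold in Ogg1 KO, 1.99-fold in Mutyh KO and 1.34-fold in DKO. Fcgrt, the neonatal Fc receptor, was at 1.24, 1.32 and 1.31-fold, and Hfe, a regulator of iron uptake, at 1.54, 1.59 and 1.23-fold, the last with an interval that included 1. H2-Q8 was sparse, with 27 reads in Ogg1 KO, 33 in Mutyh KO, 33 in DKO and 16 in WT, and folds of 1.80 (0.933 to 3.57), 2.18 (1.17 to 4.24) and 2.05 (1.10 to 3.99). At 0.747 RPKM in WT, H2-Q8 passed the filter through its knockout values. H2-T22 was at 0.889, 0.883 and 0.958-fold with intervals that included 1. H2-Q10, a secreted class I chain of the liver, had 0 reads in Ogg1 KO, 31 in Mutyh KO, 32 in DKO and 25 in WT, and stayed under the 1 RPKM filter; it was singled out after its values were seen.

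The chaperones of the loading pathway were mixed, with median log2 ratios of -0.08 (Ogg1 KO), -0.08 (Mutyh KO) and -0.04 (DKO) over 10 genes. Counting intervals lay below 1 for 5, 5 and 4 of them (16.2%, 16.4% and 17.2% of all genes) and above 1 for 1, 1 and 2 (21.3%, 19.8% and 16.2%). Calr, the chaperone calreticulin of the loading complex, was at 0.928-fold in Ogg1 KO, 0.849-fold in Mutyh KO and 0.770-fold in DKO, and Pdia3, its partner oxidoreductase, at 0.905, 0.9496 and 0.896-fold. The general chaperone Hspa5 was at 0.666, 0.715 and 0.684-fold, and Pdia4, a disulfide isomerase, at 0.787, 0.827 and 0.732-fold. In the other direction, Erap1, which trims peptides in the endoplasmic reticulum, was at 1.09-fold in Ogg1 KO (0.891 to 1.34), 1.31-fold in Mutyh KO and 1.28-fold in DKO, and Tapbpl, a tapasin homologue that edits peptides, at 1.26-fold in Ogg1 KO and 1.27-fold in Mutyh KO, both with intervals that included 1, and at 1.40-fold in DKO (1.06 to 1.86). Canx, the chaperone calnexin, stayed between 1.02 and 1.04-fold.

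The proteasome partners, which include Psmb10, the activator subunits and the constitutive catalytic subunits, had medians of -0.04 (Ogg1 KO), -0.07 (Mutyh KO) and -0.02 (DKO) over 8 genes. Psmb5 was at 0.738-fold in Ogg1 KO, 0.761-fold in Mutyh KO and 0.875-fold in DKO, all with intervals below 1. Psmb10 was at 1.23-fold in Ogg1 KO (1.03 to 1.47), 0.933-fold in Mutyh KO and 0.995-fold in DKO. Psme2, a subunit of the interferon-induced activator, was at 1.04, 1.04 and 1.253-fold.

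Regulators of class I transcription that passed the filter stayed near WT, with medians of 0.07 (Ogg1 KO), 0.02 (Mutyh KO) and 0.02 (DKO) over 19 genes. Without the filter the medians over 23 genes were 0.07, 0.05 and 0.02. Nlrc5, the transactivator of class I genes, lay under the filter and is not among the 19. It was sparse and lowest in WT, with 33 reads in Ogg1 KO, 37 in Mutyh KO, 42 in DKO and 28 in WT, and intervals that included 1. Irf1, a driver of the interferon response, was at 0.786-fold in Ogg1 KO, 1.01-fold in Mutyh KO and 0.967-fold in DKO, with the Ogg1 KO interval alone leaving out 1. Ifnar2 and Ifnar1, the subunits of the type I interferon receptor, were at 1.40 and 1.20-fold in Ogg1 KO, 1.43 and 1.31-fold in Mutyh KO and 1.13 and 1.07-fold in DKO, where both intervals included 1. The interferon genes Ifng and Ifnb1 had 1 read each in Mutyh KO and 0 in the other 3 libraries; these and Nlrc5 were singled out after their values were seen. Among class I receptors, Cd247, the CD3 zeta chain, was at 1.17, 1.24 and 1.22-fold with intervals that included 1, and Tfrc, the transferrin receptor bound by Hfe, at 0.980, 1.15 and 1.23-fold.

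Class II genes had medians of 0.87 (Ogg1 KO), 0.76 (Mutyh KO) and 1.05 (DKO) over 6 genes, with H2-Aa, a class II alpha chain, at 4.97, 4.29 and 6.30-fold and Cd74, the invariant chain, at 3.64, 2.58 and 3.79-fold. H2-Aa (0.917 RPKM and 18 reads in WT) and the class II gene H2-Eb1 (0.628 RPKM in WT) passed the filter on the mean through their knockout values. The medians over the 6 thus rest in part on genes kept because they were higher in the knockout libraries. Intervals lay above 1 for 4 of the 6 in each comparison (21.3%, 19.8% and 16.2% of all genes). H2-DMa, a peptide exchange chain named after its values were seen, had 8.67 RPKM in Ogg1 KO, 11.3 in Mutyh KO, 9.93 in DKO and 10.95 in WT. Without the filter, over all 9 listed class II genes, the medians were smaller, at 0.34, 0.21 and 0.16. Interferon-stimulated genes had medians of 0.15, 0.28 and 0.37 over 15 genes. Of these, 11, 14 and 15 were higher (54.6%, 53.1% and 49.3% of all genes). Intervals lay above 1 for 4, 7 and 9 (21.3%, 19.8% and 16.2% of all genes). Gbp2, an interferon-induced GTPase, was at 1.36-fold in Ogg1 KO, 1.34-fold in Mutyh KO and 1.99-fold in DKO, and Bst2, the antiviral protein tetherin, at 1.39, 1.81 and 1.33-fold.

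**Figure D5:**
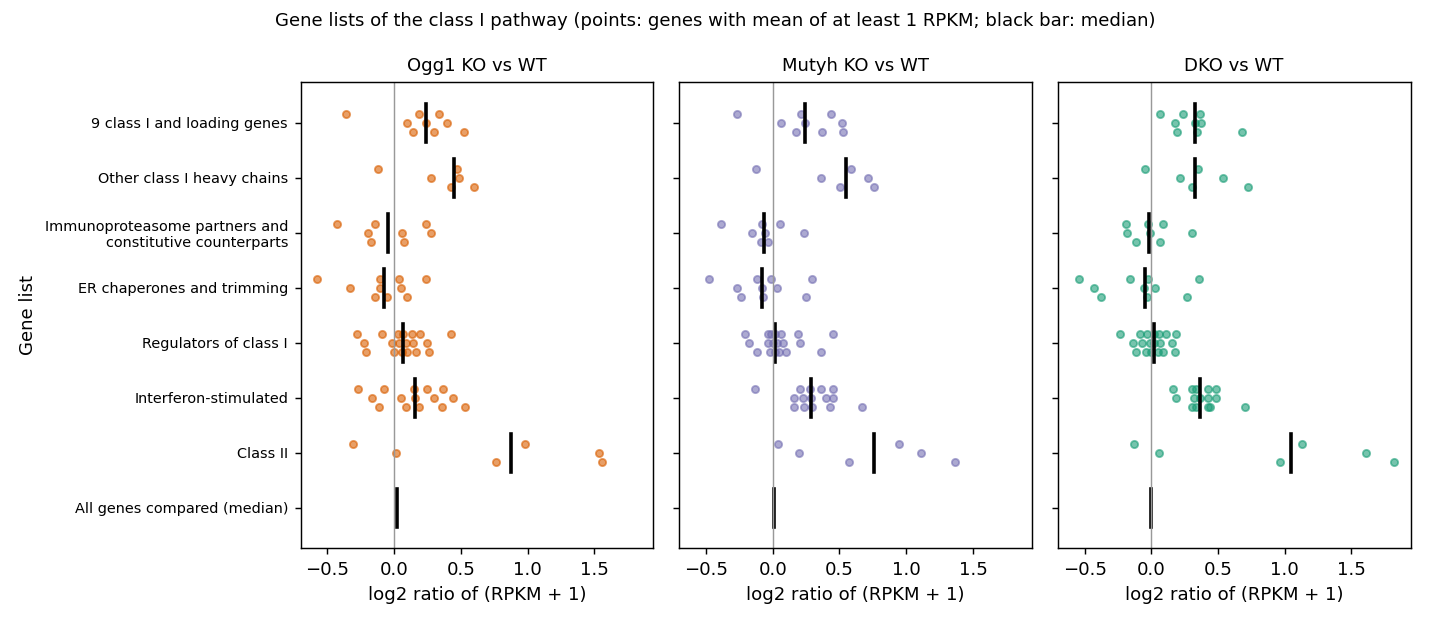
Log2 ratios to WT of RPKM plus 1 for genes of the class I pathway and neighbouring lists in the Ogg1 KO, Mutyh KO and DKO libraries, 1 point per gene with a mean of at least 1 RPKM and a black bar at the median. The medians of the 9 genes (0.24, 0.24 and 0.33), the other heavy chains, the interferon-stimulated genes and the class II genes lie right of the median of all genes, and those of the chaperones, the proteasome partners and the regulators lie within 0.08 of 0.

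Markers of other cells differed between the same libraries. In bulk tissue a difference in the number of cells of a type and in their RNA per cell cannot be told apart. Endothelial markers summed to 551 RPM (reads scaled to the library total, as in RPKM but without length) in Ogg1 KO, 596 in Mutyh KO, 549 in DKO and 493 in WT, with 15, 16 and 14 of 18 genes higher. Of all genes, 54.6%, 53.1% and 49.3% were higher in these comparisons. Meningeal markers summed to 562, 764 and 559, against 274 in WT, with 11, 14 and 14 of 14 higher, and choroid plexus markers to 5151, 5317 and 2687, against 586, with 18 of 18 higher in each. Border macrophage markers, 8 genes, were sparse and summed to 11.6, 16.4 and 13.9, against 9.27 in WT. These sums rest on 198 reads in Ogg1 KO, 282 in Mutyh KO, 253 in DKO and 168 in WT. Blood markers summed to 73.7, 127.7 and 57.5, against 37.0 in WT, and ependymal markers to 60.1, 82.8 and 49.8, against 48.5. For these lists their part in the class I differences was not tested.

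Microglia markers summed to 542 RPM in Ogg1 KO, 546 in Mutyh KO, 570 in DKO and 549 in WT, with 7, 10 and 13 of 18 higher (54.6%, 53.1% and 49.3% of all genes). Markers of T and natural killer cells, 12 genes, were sparse and differed between libraries. They summed to 4.05 RPM in Ogg1 KO (69 reads), 2.22 in Mutyh KO (38), 3.74 in DKO (68) and 2.04 in WT (37). Cd3g, Cd2, Nkg7, Gzma, Gzmb, Klrb1c and Ncr1 were at 0 in at least 1 library. The part of these markers in the class I differences was not tested. B cell markers stayed between 0.989 and 0.999, with Ms4a1 and Ighm at 0 throughout, and granulocyte markers between 0.822 and 1.52, with Ly6g at 0. The labelled tissue was represented, with 16 of 16 hippocampal neuron markers and 12 of 12 astrocyte markers listed in every library. Neuron markers summed to 12336 RPM in Ogg1 KO, 12187 in Mutyh KO, 12485 in DKO and 13108 in WT, and astrocyte markers to 7302, 7871 and 7889, against 7062. The Mutyh KO library also held 10307 reads of Xist, against 23 in Ogg1 KO, 29 in DKO and 14 in WT, and its part in the class I differences was not tested.

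By the root mean square distance over the 3 log2 ratios to WT, the genes closest to the median profile of the 9 genes were Akr1e1 (0.0205), Ttbk2 (0.0205), Rnf170 (0.0218), Med30 (0.0223) and Prpf31 (0.0266), among 9358 genes with a mean of at least 5 RPKM. Of these 9358 genes, 337 lay within 0.1 of that profile. The search left out genes with a mean below 5 RPKM, a level that 4 of the 9 genes reached. The class I genes themselves lay between 0.0919 (H2-T23) and 0.475 (Psmb8) from their own median.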

How the data were processed

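Hippocampal RNA was measured in 4 libraries, 1 per genotype. The authors deposited, per the file headers, a count of unique reads per gene, the gene length (another value, in bases), the coverage as a percent of that length, and RPKM. Per the file headers and values, the authors' RPKM equalled reads over length and library total. The build was mm9, per the submitters' processing notes. The sources used here do not give the aligner, counter, annotation or strand. Genes not listed in a library were taken as 0 reads. Rows without a symbol held 0.0179% to 0.0195% of the reads and stayed in the totals.

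Folds are ratios of reads per library total with exact conditional 95% intervals. Intervals of RPKM are exact Poisson, and those of the ratio of folds are normal on the log scale. Comparisons across genes used log2(RPKM + 1) on 13186 genes with a mean of at least 1 RPKM, which understates differences of low genes. The call was 1.5-fold. The calculation was tested on simulated data. Alternatives were other pseudocounts, filters, calls and scalings, with TMM from edgeR 4.0.16 and median of ratios from DESeq2 1.42.0. Python 3.11.15 with scipy 1.17.1 was used. The genes were found by symbol, and they and the lists were chosen with earlier results of these data known. The text names all 9 genes, from each other list the 2 to 4 compared genes with the largest absolute log2 ratio to WT in any knockout plus genes with a known role in class I loading, and the 5 genes closest to the median profile; others are said to be chosen after their values were seen.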

Additional observations from a re-analysis of the deposited data

Results flagged for a closer look

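B2m was set apart for a closer look because its effects ran in opposite directions on the intact and the null background. The loss of Ogg1 went with a fold of 1.23 in B2m where Mutyh was intact (Ogg1 KO over WT) and of 0.791 where it was also lost (DKO over Mutyh KO). The loss of Mutyh went with a fold of 1.45 where Ogg1 was intact (Mutyh KO over WT) and of 0.927 where it was also lost (DKO over Ogg1 KO). Each counting interval left out 1, except that the fold of 0.927 had an interval that included 1 under median of ratios scaling and under totals without ribosomal RNA, and with 1 library per genotype the difference between backgrounds was not tested. Medians of some other cell marker lists had the same signs as B2m, and those of others did not. Choroid plexus markers had median log2 ratios of 2.32 (Ogg1 KO over WT), 2.40 (Mutyh KO over WT), -0.96 (DKO over Mutyh KO) and -0.77 (DKO over Ogg1 KO), and blood markers of 0.84, 1.68, -1.03 and -0.28. Ependymal markers also shared the signs, at 0.18, 0.72, -0.70 and -0.16. In DKO over Ogg1 KO, however, 4 of 8 ependymal genes were higher and 4 lower, so that this sign is not firm. Of 5 blood genes, 1 was higher there and 4 lower, beside 6052 of 13186 genes higher. Meningeal markers were positive throughout, at 0.35, 0.60, 0.24 and 0.32. Endothelial markers were at 0.11, 0.21, -0.09 and 0.04. Microglia, neuron and astrocyte markers did not share the signs either. Xist had 10307 reads in Mutyh KO, against 23 in Ogg1 KO, 29 in DKO and 14 in WT. Their part in the B2m values was not tested.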

How the results depend on the processing

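With 1 library per genotype no library could be left out within a genotype. No paired analysis was possible because the labels give no replicate numbers to share. TMM and median of ratios scaling moved ratios by at most 0.0348 on the log2 scale and the total without ribosomal RNA genes by at most 0.0164. Under these scalings all 15 values of the summed heavy chains and all 27 of the ratio of folds kept their direction and their side of 1. Of 135 folds of single genes, 129 kept the reading of their interval as above 1, below 1 or including 1. Among these, some folds close to 1 changed direction, with intervals that included 1. Tapbp in DKO over Ogg1 KO, for example, went from 0.993-fold to 1.002-fold under median of ratios. Tapbp in Mutyh KO over WT came to 1.11-fold with an interval that included 1 under TMM and median of ratios. H2-K1 in DKO over Mutyh KO came to 1.14-fold with an interval above 1 under both. B2m in DKO over Ogg1 KO came to 0.936-fold (median of ratios) and 0.938-fold (no ribosomal RNA), both with intervals that included 1.

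Counts of genes past the call depended on the threshold. With the call lowered to 0.32 on the log2 scale the counts of higher genes over WT were 3 (Ogg1 KO), 4 (Mutyh KO) and 5 (DKO) (6.87%, 8.24% and 5.87% of all genes), 1 in DKO over Mutyh KO (1.21%) and 1 in DKO over Ogg1 KO (3.66%). The counts of lower genes were then 1 in Ogg1 KO over WT (3.57%) and 1 in DKO over Mutyh KO (4.14%). At 2-fold, or with a pseudocount of 5 RPKM, DKO over WT had 0 higher (0.546% and 0.447%). With a pseudocount of 0.1 RPKM the counts of higher genes were 1 in Mutyh KO over WT (4.46%), 2 in DKO over WT (3.03%) and 1 in DKO over Ogg1 KO (1.71%). Counts of intervals above 1 came to 2 in DKO over Mutyh KO under TMM (12.1%) and 2 under median of ratios (13.3%), and the count below 1 in DKO over Ogg1 KO to 0 under median of ratios (17.8%). A filter at 5 RPKM left 4 of the 9 genes, of which 4 had intervals above 1 in DKO over WT (15.7%) and 0 in DKO over Mutyh KO (12.3%) or over Ogg1 KO (15.6%), and left no interferon-stimulated gene for a median. Without a filter the medians over WT came to 0.05, 0.16 and 0.18 for 19 other heavy chains and to 0.34, 0.21 and 0.16 for 9 class II genes (Ogg1 KO, Mutyh KO and DKO). Of 205 list medians, 199 stayed within their main interval. For lists of 6 genes or fewer that interval is the whole range of the list, so staying inside it says little. The class II median in DKO, for example, stayed inside while going from 1.05 to 0.16 without the filter. With a pseudocount of 0.1 RPKM the median of the 9 genes in DKO came to 0.39, the other heavy chains to 0.61 in Ogg1 KO and 0.76 in Mutyh KO, and interferon-stimulated genes to 0.57 in DKO. With 5 RPKM interferon-stimulated genes came to 0.12 in Mutyh KO and 0.16 in DKO. These shifts follow from the pseudocount, which shrinks ratios of low genes. Depth limits Psmb9 (13 to 18 reads), Psmb8 (35 to 58) and Tap1 (54 to 87).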
